A study of Mus musculus with 6 samples.

Results

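The Cyp4 family holds cytochrome P450 enzymes that add a hydroxyl group to the far (omega) end of fatty acids and of signalling lipids made from them, and 10 of its genes were examined here in mouse liver: Cyp4a10, Cyp4a12a, Cyp4a14, Cyp4b1, Cyp4f13, Cyp4f14, Cyp4f15, Cyp4f16, Cyp4f18 and Cyp4v3. Members were found by gene symbol, as every probe set (a group of short probes read together as 1 value) annotated to exactly 1 symbol that is on this list. The list itself was chosen from the genotype differences of these same 6 arrays, so the differences and calls below describe the members and support nothing beyond them. In all, 9 of the 10 genes had such a probe set, 12 member probe sets of 45037 on the array, and 9 of the 18193 genes measured. Cyp4a10 had 0, and the 1 probe set that reads it is also annotated to Cyp4a31.

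The arrays compared 3 livers labelled wild-type (HLJ1+/+, called Dnajb4+/+ here) with 3 labelled HLJ1 knockout (HLJ1-/-, called Dnajb4-/-), each from a different C57BL/6 mouse labelled male and aged 6 to 8 weeks. HLJ1 is the product of Dnajb4, a heat shock protein 40 co-chaperone. The labels name no tissue or promoter to which the knockout is restricted, and how it was made is not given in the sources used here. No animal had a treatment other than standard housing, and each value is a normalized intensity on a linear scale from an Affymetrix mouse expression array. The study asked which liver gene programmes change when HLJ1 is lost.

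Several features of the arrays differed with genotype before any Cyp4 gene was considered. The brightest Dnajb4 probe set read 566 to 612 in Dnajb4+/+ and 453 to 480 in Dnajb4-/-, and the other 2 overlapped between genotypes. Which part of the gene was removed and which part these probe sets read were not analysed here, so they do not check the labels. Xist, the RNA that silences an X chromosome in female cells, read 364 to 402 in the arrays labelled Dnajb4+/+ and 14.3 to 17.1 in those labelled Dnajb4-/-, which goes against the label male in the former. Uty, Kdm5d and Eif2s3y are genes of the Y chromosome. Their single values, each taken against the gene's own Dnajb4-/- mean, were 77.9 to 102% in Dnajb4+/+ and 93.3 to 108% in Dnajb4-/-. In intensity, Uty was 20.2 ± 1.39 in Dnajb4+/+ against 24.3 ± 1.83 in Dnajb4-/-, Kdm5d 25.5 ± 0.893 against 25.8 ± 0.413 and Eif2s3y 68.7 ± 5.34 against 79.5 ± 1.99. The median of all gene means was 43.7, and whether these genes stood above background was not analysed here. The ratio of 3′ to 5′ signal, which rises as RNA is shortened, was 1.16 to 1.19 against 1.43 to 1.48 for Gapdh and 2.59 to 2.68 against 3.10 to 3.22 for Actb. For Xist, Uty, Eif2s3y and both 3′ to 5′ ratios the genotypes did not overlap, while for Kdm5d they did. The part of these features in the Cyp4 differences was not tested.

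Omega-hydroxylation is a minor route of fatty acid breakdown in the liver that gains importance when beta-oxidation is overloaded. The hydroxylated acid is oxidized further to a dicarboxylic acid, which peroxisomes then shorten. Within the family, Cyp4a10 and Cyp4a14 are classical targets of the fasting and fibrate receptor PPARα, Cyp4a12a is an arachidonic acid hydroxylase known to be more abundant in males, and Cyp4f enzymes hydroxylate leukotriene B4 and related lipids.

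Across the members, 2 genes were lower and 2 higher in Dnajb4-/- at an adjusted p below 0.05, and 5 did not pass. The test was limma's moderated test on log2 values with Benjamini-Hochberg adjustment over all genes, and it called 9.57% of all genes lower, 5.09% higher and 14.7% in either direction. The members called lower were Cyp4a14 and Cyp4b1, and those called higher were Cyp4a12a and Cyp4v3. The values of the 2 genotypes did not overlap for 6 of the 9 measured members, against 35.5% of all genes. The median log2 difference of the members, as Dnajb4-/- minus Dnajb4+/+, was -0.03, beside 0.0075 over all genes. Counted by probe set, 2 of 12 were lower and 3 higher, where 10.4% of all probe sets were called in either direction. Since these arrays chose the members, nothing is read from these shares.

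**Figure D1:**
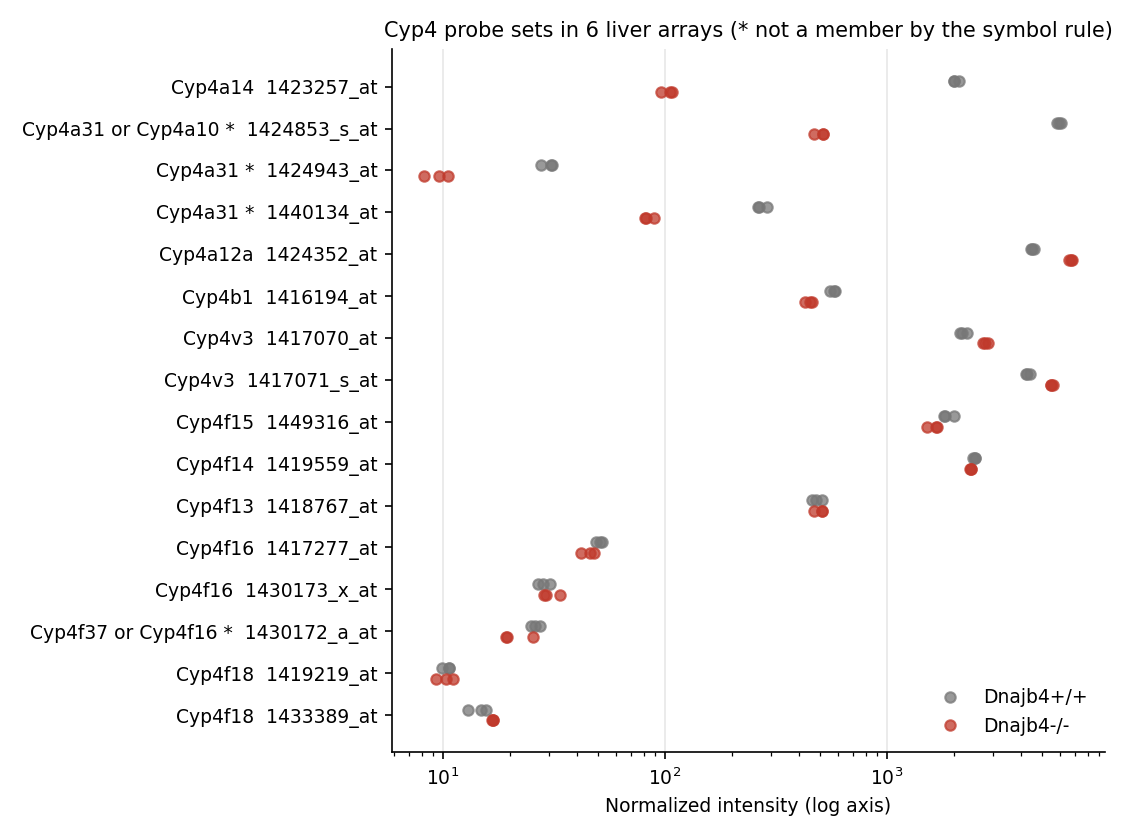
Normalized intensity (log axis) of Cyp4 probe sets in the 3 Dnajb4+/+ arrays (grey) and the 3 Dnajb4-/- arrays (red), 1 point per array. Those of Cyp4x1, Cyp4f39 and Cyp4f41-ps are not drawn. An asterisk marks a probe set that is no member by the symbol rule, and the points of Cyp4a14 lie furthest apart, at 1995 to 2118 against 96.4 to 108.

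Cyp4a14, an inducible omega-hydroxylase of medium-chain and long-chain fatty acids, had the largest difference of the members. Its probe set read 2118, 2007 and 1995 in the Dnajb4+/+ arrays and 106, 108 and 96.4 in the Dnajb4-/- arrays. The genotypes stood far apart and the replicates of each lay close together. The mean intensity was 2040 ± 68.3 (SD, n = 3) in Dnajb4+/+ and 103 ± 6.05 in Dnajb4-/-, 19.8-fold lower. On the log2 scale Cyp4a14 fell by 4.31, with a standard error of 0.05 and a 95% interval from -4.44 to -4.18. Ordered by absolute log2 difference, Cyp4a14 was number 5 of 18193 genes.

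Cyp4a10, the closest inducible relative of Cyp4a14 among the members, could not be read alone. The probe set shared by Cyp4a10 and Cyp4a31 read 5964, 5803 and 6053 in Dnajb4+/+ and 471, 514 and 512 in Dnajb4-/-. As with Cyp4a14, every Dnajb4-/- value lay far below every Dnajb4+/+ value. The mean was 5940 ± 127 against 499 ± 24.4, 11.9-fold lower, with a log2 difference of -3.57 (SE 0.05). How much of this signal came from Cyp4a10 cannot be told apart from Cyp4a31. Cyp4a31, a further Cyp4a gene outside the list, had 2 probe sets of its own. The first read 263, 289 and 266 against 82.1, 81.6 and 89.5, a log2 difference of -1.69. The second read 27.7, 30.8 and 30.6 against 8.24, 9.62 and 10.5, a log2 difference of -1.66, which was -0.84 with 16 added to each value. Both passed the test, and averaged as 1 gene Cyp4a31 had a log2 difference of -1.67 (SE 0.07, limma adjusted p = 2.38e-05). The Cyp4a31 difference was smaller than that of the shared probe set, but Cyp4a genes are close in sequence and cross-reading between them was not tested.

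Cyp4a12a went the other way. Its probe set read 4509, 4583 and 4473 in Dnajb4+/+ and 6707, 6835 and 6631 in Dnajb4-/-. All 3 Dnajb4-/- arrays lay above all 3 Dnajb4+/+ arrays, and the gap was many times the spread within a genotype. The mean was 4522 ± 56.0 against 6724 ± 103 (SD, n = 3 each), 1.49-fold higher, and the log2 difference was 0.57 (SE 0.04, 95% interval 0.49 to 0.66). Cyp4a12a and Cyp4a14, neighbours in the same gene cluster, thus had intervals on opposite sides of 0.

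**Figure D2:**
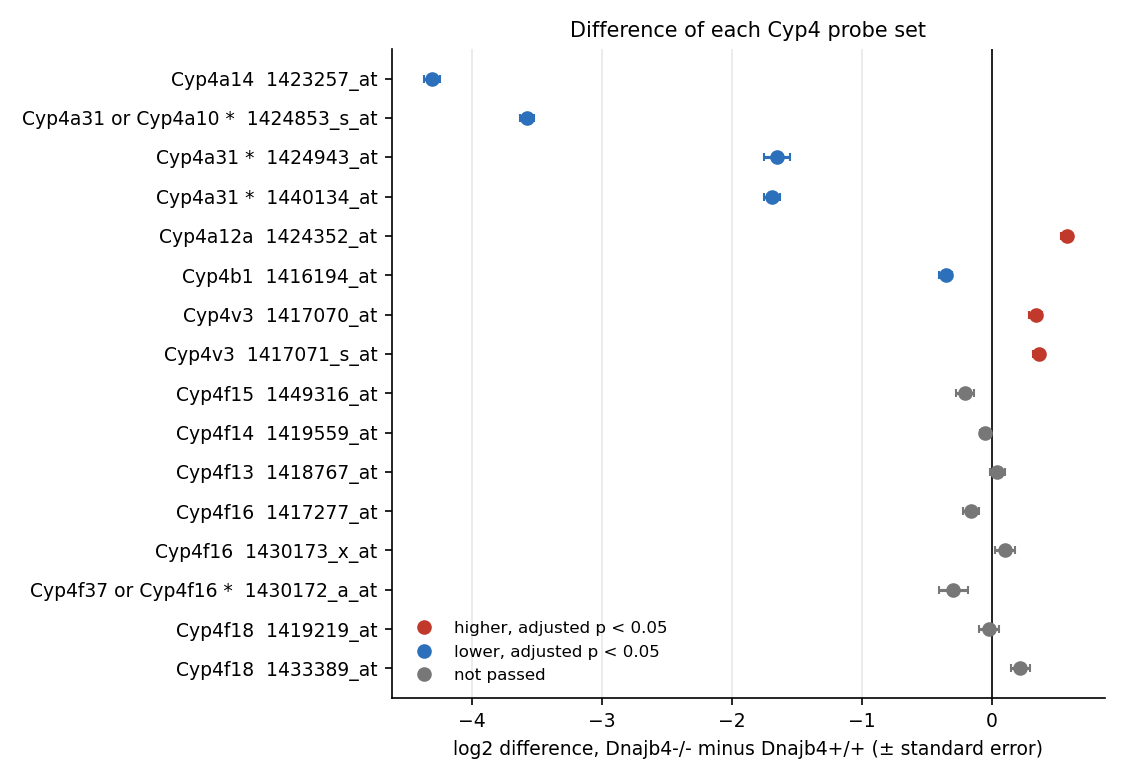
Log2 difference, Dnajb4-/- minus Dnajb4+/+, of Cyp4 probe sets (points) with standard errors (bars), coloured by the limma call at an adjusted p below 0.05 over all probe sets. Those of Cyp4x1, Cyp4f39 and Cyp4f41-ps are not drawn. The Cyp4a probe sets span -4.31 to 0.57, while the Cyp4f probe sets of a single symbol lie between -0.21 and 0.22 and none of them passed.

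Cyp4b1, known for hydroxylating short-chain fatty acids and for activating plant and drug toxins, chiefly in lung, read 581, 551 and 575 in Dnajb4+/+ and 427, 459 and 448 in Dnajb4-/-. The ranges were separate, with all the Dnajb4-/- values below. The mean was 569 ± 16.05 against 445 ± 16.05, a log2 difference of -0.36 (SE 0.04, 95% interval -0.46 to -0.25).

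Cyp4v3, the mouse counterpart of the human gene mutated in Bietti crystalline dystrophy and a medium-chain fatty acid hydroxylase, had 2 probe sets that moved alike. One read 2290, 2127 and 2181 in Dnajb4+/+ and 2756, 2856 and 2711 in Dnajb4-/-, a log2 difference of 0.34. The other read 4406, 4225 and 4275 against 5576, 5451 and 5494, a log2 difference of 0.36. In both, every Dnajb4-/- array was above every Dnajb4+/+ array. As 1 gene (the mean of the log2 values of its probe sets in each array), Cyp4v3 rose by 0.35 (SE 0.04, 95% interval 0.25 to 0.44), from 3076 ± 91.7 to 3909 ± 44.3.

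Among the Cyp4f genes, 0 of 5 passed limma's test after adjustment, while at an unadjusted p below 0.05 limma called 1 and the equal-variance test named in the study's methods called 2, all lower. Cyp4f15 came nearest, with 1801, 1820 and 1994 in Dnajb4+/+ and 1512, 1684 and 1662 in Dnajb4-/-. These values did not overlap, and the log2 difference was -0.21 (SE 0.06, 95% interval -0.35 to -0.06). Cyp4f15 passed when dim genes were left out, when 16 was added to each value and when the variance was fitted with a trend.

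Cyp4f14, a liver enzyme that hydroxylates leukotriene B4 and the side chains of vitamins E and K, read 2439, 2479 and 2488 against 2396, 2364 and 2385. The genotypes did not overlap, yet the log2 difference was -0.05 (SE 0.03), with a 95% interval from -0.13 to 0.03. Cyp4f13 read 480, 461 and 509 against 470, 508 and 512, overlapping, with a log2 difference of 0.04 and an interval from -0.09 to 0.17. These intervals leave room for differences of either sign in both genes, but not for one of the size seen in Cyp4b1 or Cyp4v3.

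Cyp4f16 had 2 probe sets of its own that pointed in different directions. The first read 51.1, 48.7 and 52.1 in Dnajb4+/+ and 41.9, 47.9 and 46.0 in Dnajb4-/-, without overlap, a log2 difference of -0.16. The second read 26.7, 30.3 and 28.1 against 29.1, 28.6 and 33.5, overlapping, a log2 difference of 0.10. A further probe set, shared with Cyp4f37 and so no member, read 27.2, 26.0 and 25.0 against 19.4, 25.4 and 19.3, a log2 difference of -0.30. None of these passed, and Cyp4f16 as 1 gene was 37.9 ± 0.819 against 37.0 ± 2.17.

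Cyp4f18, the leukotriene B4 hydroxylase of neutrophils, read low in liver. One of its probe sets ranged from 9.88 to 10.7 in Dnajb4+/+ and from 9.25 to 11.1 in Dnajb4-/-, overlapping. The other read 12.9, 14.8 and 15.7 against 16.9, 16.7 and 16.7, without overlap, a log2 difference of 0.22 that did not pass. The lowest value anywhere in the table was 3.90, and whether Cyp4f18 stood above background was not analysed here. Of 11 neutrophil markers listed, 9 were measured, their sum was 357 to 372 in Dnajb4+/+ and 328 to 339 in Dnajb4-/-, and 2 were called lower and 0 higher.

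Of 10 further Cyp4 genes listed by name, 3 had a probe set annotated to them alone. Besides Cyp4a31, these were Cyp4x1, at 7.79 ± 0.631 against 7.85 ± 0.604, and Cyp4f39, at 14.9 ± 1.03 against 15.7 ± 0.520. Neither passed the test and both overlapped between genotypes. The pseudogene Cyp4f41-ps read 15.9 ± 1.72 against 15.98 ± 1.22 and did not pass either.

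The promoters of the members show what sequence lies before the genes called in each direction. The table of RefSeq promoters used here (assembly GRCm38.p6) was matched for 7 of the 10 members, and those of Cyp4a10, Cyp4a12a and Cyp4a14 were not analysed here. The 250 bases before the start are printed for Cyp4b1, which was lower, Cyp4v3, which was higher, and Cyp4f13, which did not pass, all on the minus strand and written 5′ to 3′. Their positions are chr4:115647722-115647971, chr8:45333164-45333413 and chr17:32947362-32947611. Capitals mark a match to TTCNNNGAA, the element that STAT factors such as STAT3 bind.
Cyp4b1: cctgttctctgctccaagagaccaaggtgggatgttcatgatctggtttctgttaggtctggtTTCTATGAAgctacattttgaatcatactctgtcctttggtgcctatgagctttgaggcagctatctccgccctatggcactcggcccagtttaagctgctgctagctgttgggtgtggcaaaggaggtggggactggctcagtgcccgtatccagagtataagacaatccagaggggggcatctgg
Cyp4v3: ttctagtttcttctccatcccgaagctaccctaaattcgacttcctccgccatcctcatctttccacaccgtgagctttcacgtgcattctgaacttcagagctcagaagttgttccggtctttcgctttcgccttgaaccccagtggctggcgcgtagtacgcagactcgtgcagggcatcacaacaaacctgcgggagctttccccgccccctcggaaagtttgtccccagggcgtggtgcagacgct
Cyp4f13: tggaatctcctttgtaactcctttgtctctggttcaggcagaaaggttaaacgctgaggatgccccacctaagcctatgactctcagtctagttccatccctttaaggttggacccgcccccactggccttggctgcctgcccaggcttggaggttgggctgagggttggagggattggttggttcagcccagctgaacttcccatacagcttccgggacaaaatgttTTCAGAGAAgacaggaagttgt
Cyp4b1 and Cyp4f13 each held 1 match to TTCNNNGAA, which starts 187 and 22 bases before the start (positions -187 and -22), and Cyp4v3 and the other 4 members with a promoter held none. Of all 32851 promoters in the table, read over the same length, 7.02% held this motif. This share counts promoters, of which a gene such as Cyp4f14 can have several, while the members were counted as genes. AGGTCA, the hexamer that nuclear receptors bind, was in none of the members' windows and in 14.0% of all promoters. The direct repeat of AGGTCA with 1 base between, the form PPARα binds, was in 11 of all promoters, 0.0335%. Both strands were searched and AGGTCA lies within the repeat. Only exact matches to the fixed bases within these windows were counted. Sites that vary from the motifs or lie elsewhere were not read, so nothing is concluded on PPARα binding. The 2 members with the STAT element were 1 that was lower and 1 that did not pass.

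Most Cyp4 genes lie in clusters, so the measured genes on each side were set beside them in RefSeq order. On chromosome 4, Cyp4x1, Cyp4a12a, Cyp4a14, Cyp4a31 and Cyp4b1 followed each other with no other measured gene between them. The nearest measured genes outside were Stil, Tal1 and Pdzk1ip1 on one side and Efcab14, Tex38 and Atpaf1 on the other. Of these 6, 0 passed limma's test in either direction, 0 had an unadjusted p below 0.05 by limma or by the equal-variance test, and their log2 differences ran from -0.08 to 0.08. The Cyp4 genes between them ran from -4.31 to 0.57. On chromosome 17, the Cyp4f cluster and the 10 other measured genes in and around it held 0 calls by limma. Of all 16 genes there, 5 had an unadjusted p below 0.05 by limma and 3 by the equal-variance test, and the log2 differences of the 10 others ran from -0.16 to 0.21.

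Cyp4v3 and Cyp4f18 lie apart from the clusters, on chromosome 8. Around Cyp4v3, the melatonin receptor gene Mtnr1a (0.37, adjusted p = 0.0456) and Fam149a (0.24, adjusted p = 0.0239) were higher, while F11, which encodes coagulation factor XI, was lower (-0.16, adjusted p = 0.0429), all log2 differences with limma's adjusted p. The other 3 of the 6 neighbours of Cyp4v3 did not pass. Around Cyp4f18, 1 of 6 neighbours passed, Cib3, at a log2 difference of -0.45 (adjusted p = 0.0244). Cib3 is also on the list of genes with male-biased expression in liver.

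**Figure D3:**
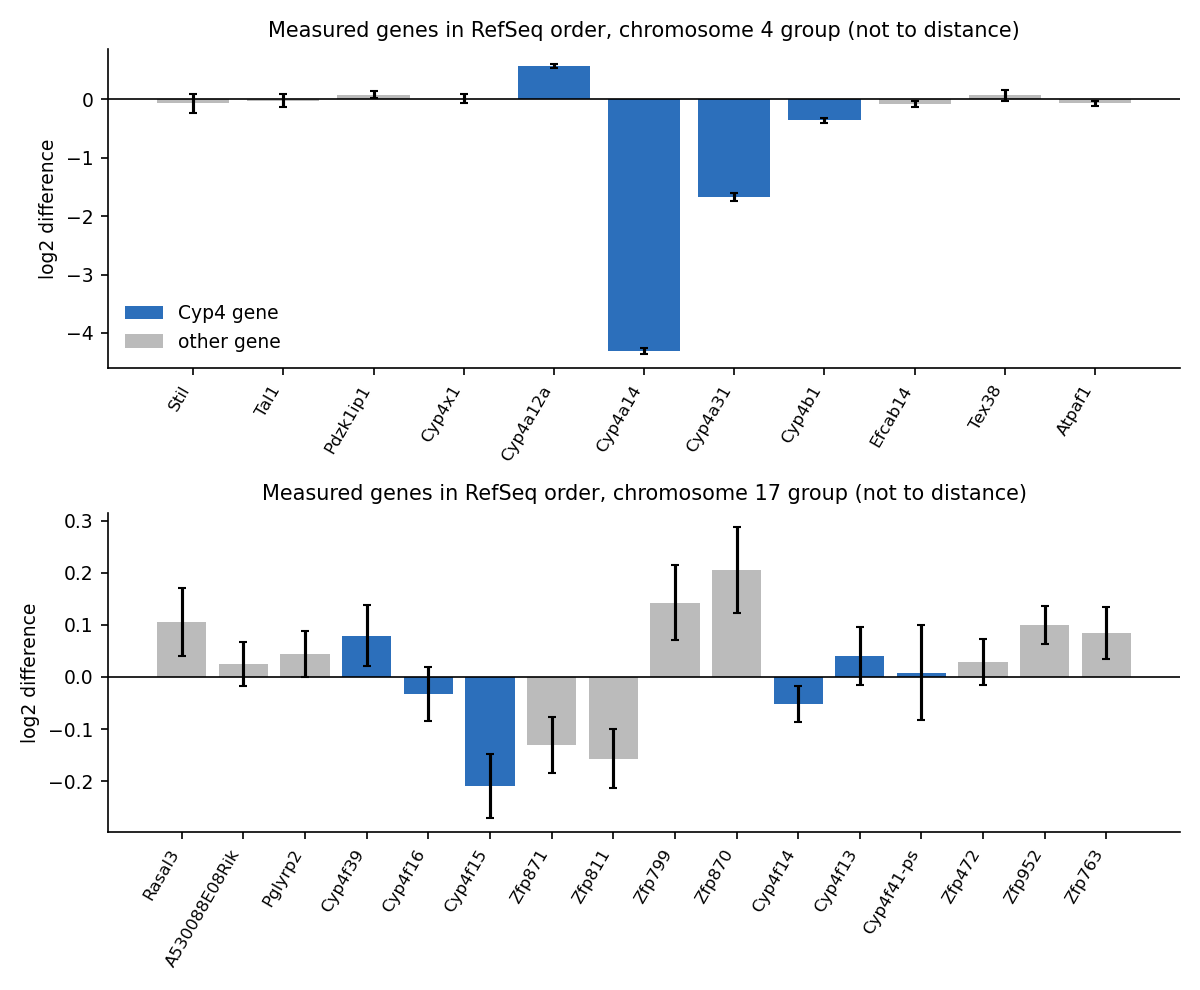
Log2 difference, Dnajb4-/- minus Dnajb4+/+, of the measured genes in and around the chromosome 4 group (top) and the chromosome 17 group (bottom) in RefSeq order, not drawn to distance. Bars are gene values with their standard errors, Cyp4 genes in blue and others in grey, and on chromosome 4 the 6 outer genes stay within -0.08 to 0.08 while Cyp4a14 is at -4.31.

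The 5 genes most like Cyp4a14 over the 6 arrays were named by their distance from it. Likeness was the root mean square distance between log2 values, each taken relative to the gene's Dnajb4+/+ mean. As replicates lay close together, this distance mainly follows how near a gene's genotype difference is to that of Cyp4a14. It does not show shared control. The nearest were Slc22a26, an organic anion transporter gene, at a distance of 0.17 and a log2 difference of -4.09, and Xist, at 0.20 and -4.58. Next came Hao2, a peroxisomal hydroxy acid oxidase gene, at 0.35 and -4.03, the cytochrome P450 gene Cyp2b13, at 0.46 and -3.67, and the peroxisomal acyl-CoA thioesterase gene Acot3, at 0.80 and -3.18. Slc22a26, Hao2, Cyp2b13 and Acot3 are on the list of genes with female-biased expression in liver, and Acot3 is also on the list of PPARα targets. Both lists were chosen with earlier results of these data known.

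**Figure D4:**
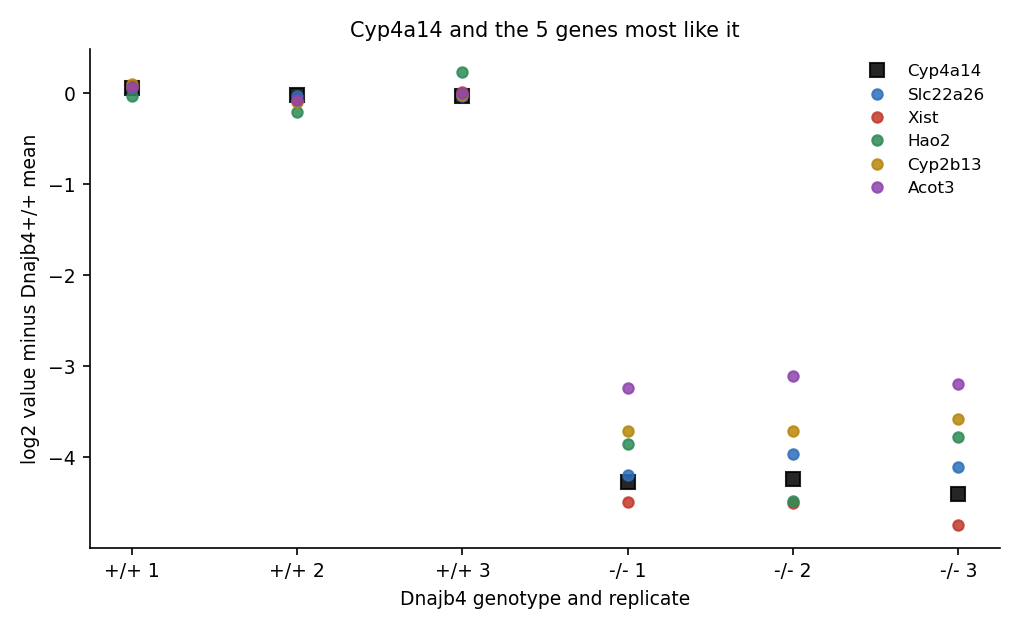
Log2 value minus the gene's Dnajb4+/+ mean in each of the 6 arrays for Cyp4a14 (squares) and the 5 genes most like it (circles). In the 3 Dnajb4-/- arrays Cyp4a14 lies near -4.31, between Xist, at a mean of -4.58, and Slc22a26, at -4.09.

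Genes that act with the Cyp4 enzymes were read from lists. These and the lists below were chosen with earlier results of these data known, so their counts are descriptions. Cytochrome P450 enzymes of the endoplasmic reticulum take electrons from the reductase Por, which had no probe set of a single symbol, and from cytochrome b5. Of the 3 electron donor genes measured out of 4, 0 passed limma's test, while 2 had an unadjusted p below 0.05 by limma and 2 by the equal-variance test, 1 in each direction. Cyb5b was at a log2 difference of 0.14 (adjusted p = 0.0512) and Cyb5r3 at -0.10 (adjusted p = 0.141). Over 17 alternatives the count higher was 0 in 8 and otherwise 1, and the count lower was 0 in 13 and otherwise 1.

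PPARα, the nuclear receptor that drives Cyp4a10 and Cyp4a14 in fasting, is encoded by Ppara, which fell from 1487 ± 17.6 in Dnajb4+/+ to 1264 ± 23.1 in Dnajb4-/-, a log2 difference of -0.23 (SE 0.04, limma adjusted p = 0.00723). Of 15 measured genes of this receptor and its partners out of 17, 6 were lower and 2 higher, with a median log2 difference of -0.10 beside 0.0075 over all genes. Among those lower were the coactivator gene Ppargc1a, with a log2 difference of -0.74 (adjusted p = 3.57e-04), the partner receptor gene Rxrg, at -0.42, and the repressor gene Nr1d1, at -0.37. Nr1d1 is also on the list of clock genes. Nr0b2, which encodes the repressor SHP, was higher, with a log2 difference of 1.09 (adjusted p = 8.42e-05). The count lower was 3 without Dnajb4+/+ replicate 2, without Dnajb4+/+ replicate 3 or without Dnajb4-/- replicate 1, and the count higher was 1 when any 1 array other than Dnajb4-/- replicate 3 was left out.

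Of the PPARα target genes outside the Cyp4 family, 32 of 35 were measured, 18 were lower, 1 was higher and 13 did not pass, with a median log2 difference of -0.21. Those with the largest differences were Acot3, which fell from 364 ± 16.8 to 40.2 ± 1.85, Vnn1, a pantetheinase gene, from 602 ± 22.4 to 185 ± 6.16, Acot4 (log2 difference -1.14) and the fatty aldehyde dehydrogenase gene Aldh3a2 (-0.79). Angptl4, a lipoprotein lipase inhibitor gene, was the one that rose, with a log2 difference of 0.23 (limma adjusted p = 0.00961). Targets often used to read this receptor did not pass, among them Cpt1a (log2 difference -0.08), Pdk4 (-0.04), Fabp1 (0.04) and Fgf21 (0.05), which were chosen after their values were seen. Cyp4a14, at -4.31, had a larger log2 difference than any of the 32.

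Steps after omega-hydroxylation were lower in part. Of 23 measured genes out of 25 for the dehydrogenases, transporters and peroxisomal enzymes that handle omega-hydroxy and dicarboxylic acids, 9 were lower, 0 higher and 14 did not pass, with a median log2 difference of -0.10, and at an unadjusted p below 0.05 limma and the equal-variance test each called 1 higher. The log2 difference was -1.43 for Abcd2, a peroxisomal fatty acyl-CoA transporter gene, -1.14 for Acot4 and -0.21 for Ehhadh, the bifunctional enzyme of peroxisomal beta-oxidation. Aldh3a2 went from 997 ± 29.4 to 578 ± 9.52, a log2 difference of -0.79. The lists share genes, so their counts are not separate. Acot4, Aldh3a2, Ehhadh and Pex11a, all lower, are also on the list of PPARα targets, as are Acaa1a and Acaa1b, which did not pass. Abcd2 is also on the list of genes with female-biased expression in liver. Under the replicate block the count lower was 4, and without Dnajb4+/+ replicate 1 it was 5.

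Genes for leukotrienes and related lipids, substrates of the Cyp4f enzymes, gave 2 calls higher, 0 lower and 11 not passed among 13 measured out of 16, with a median log2 difference of 0.00050, and at an unadjusted p below 0.05 limma called 1 lower and the equal-variance test 0. Ltb4r1, the leukotriene B4 receptor gene, was 32.1 ± 0.437 against 39.0 ± 1.32 (log2 difference 0.28, limma adjusted p = 0.00530). Cyp2j5, an arachidonic acid epoxygenase gene, was higher by a log2 difference of 0.16 (adjusted p = 0.0261). The count higher was 1 under several alternatives, the replicate block and the loss of any 1 array among them.

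Sex-dependent liver genes differed with genotype as well. Their lists were chosen with earlier results of these data known, so the counts describe the listed genes only. A list of 26 genes with female-biased liver expression had 19 measured, and 18 of them were lower in Dnajb4-/-, with a median log2 difference of -1.43. Their summed intensity was 8967 to 9335 in Dnajb4+/+ and 1005 to 1052 in Dnajb4-/-. The largest were the sulfotransferase gene Sult3a1 (-7.02), Cyp2b9 (-5.55), Sult2a2 (-5.48) and Slc22a26 (-4.09), all as log2 differences. A list of 21 genes with male-biased expression had 17 measured, of which 12 were higher and 2 lower, with a median log2 difference of 0.30 and sums of 52253 to 52856 against 66126 to 67432. Elovl3 was at 1.25, Bcl6 at 1.12, Serpina12 at 1.09 and Ugt2b38 at 0.99. The count of male-biased genes that were lower was 1 when any 1 Dnajb4+/+ array, or Dnajb4-/- replicate 2, was left out. Cyp4a14 stood on the side of the female-high genes and Cyp4a12a on that of the male-high genes, and the part of these lists in the Cyp4a differences was not tested.

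Clock genes also differed, and several PPARα genes cycle over the day. Of 18 measured out of 19, 12 were lower and 5 higher in Dnajb4-/-, with a median log2 difference of -0.57. As log2 differences, Dbp was at -3.05, Usp2 at -2.14 and Ciart at -1.67, while Arntl was at 1.24. The hour at which each liver was taken was not analysed here, and the part of the clock in the Cyp4 differences was not tested.

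**Figure D5:**
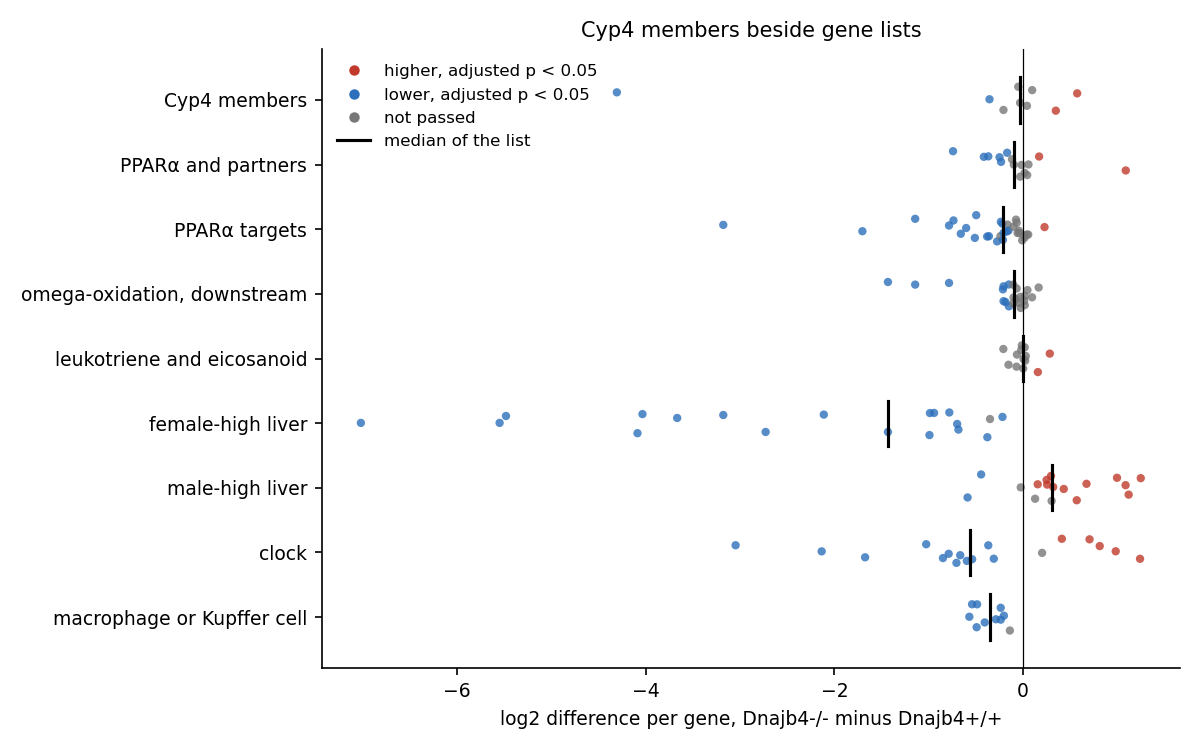
Log2 difference, Dnajb4-/- minus Dnajb4+/+, of each measured gene (points) in the Cyp4 members and in 8 gene lists, coloured by the limma call at an adjusted p below 0.05, with the median of each list as a black bar. The Cyp4 members have a median of -0.03, the PPARα targets -0.21 and the female-high liver genes -1.43.

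The tissue label was read against cell type markers, since in whole liver fewer cells of a type and less RNA per cell cannot be told apart. Hepatocyte markers, all 12 measured, summed to 169423 to 170030 in Dnajb4+/+ and 165390 to 167121 in Dnajb4-/-, with 1 called higher and 1 lower. Macrophage and Kupffer cell markers were lower for 9 of 10 (sums 5394 to 5666 against 4220 to 4428), endothelial markers for 4 of 8 (1684 to 1764 against 1487 to 1557) and skeletal muscle markers for 9 of 10 (740 to 801 against 347 to 359). Lymphocyte markers gave 0 calls by limma among 7 measured (1 at an unadjusted p below 0.05, by limma and by the equal-variance test), stellate cell or fibroblast markers 1 lower among 8, adipocyte markers 1 lower among 4 and cholangiocyte markers 1 higher among 5. Cyp4b1 is expressed in several cell types, and the part of these markers in its lower value was not tested.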

How the data were processed

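Liver RNA of 3 Dnajb4+/+ and 3 Dnajb4-/- mice, grouped by the labels, was hybridised to Affymetrix Mouse Genome arrays. The deposited values are intensity values on a linear scale: the authors normalized them in GeneSpring by GCRMA, which corrects background by probe composition, and centred arrays on a global median. They are not counts, and 6 arrays limit the precision. Here the values of 45037 probe sets (64 control probe sets left out) were taken to log2, and the 34945 with 1 gene symbol were averaged per gene, giving 18193 genes. Genotypes were compared with limma 3.58.1 (lmFit and eBayes, two-sided, R 4.3.3), with Benjamini-Hochberg adjustment over all genes, or over all probe sets, at a threshold of 0.05, and with no covariate. The calculations were tested on simulated data. Figures were drawn with matplotlib 3.10.9 (python 3.11.15). Mean ± SD is over the 3 arrays of a genotype.

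The members and gene lists were chosen with earlier results of these data known. Genes were named by rule: all members with every probe set, all other measured Cyp4 genes, up to 4 called genes of each list with the largest absolute difference (up to 2 where none was called), Ppara, Por, Dnajb4, Xist, the Y-linked genes, the 3 nearest measured genes on each side of each Cyp4 group, and the 5 genes most like a member that differed by at least 2-fold. An identifier in RefSeq was found for 18029 of the 18193 genes. Alternatives were quantile normalization, centring on brighter probe sets, leaving out dim genes, other gene-level values, leaving out probe sets that can read several transcripts, adding 16, a trended and robust variance, the equal-variance test that the methods name, the replicate number as a block, and leaving out each array. The replicate numbers were not taken to pair the arrays, since the deviations of same-numbered arrays correlated at -0.02, -0.14 and 0.01. Same-genotype arrays correlated at 0.9981 to 0.9985 across genes and arrays of different genotype at 0.9935 to 0.9948.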

Additional observations from a re-analysis of the deposited data

How the results depend on the processing

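The count of members higher was 2 under every alternative run. The count lower was 2 except under 4 alternatives: it was 3, with Cyp4f15 added, when dim genes were left out, when 16 was added and with a trended and robust variance, and under the methods' t-test at an unadjusted p 4 members and 4 member probe sets were lower, Cyp4f14 and Cyp4f15 being added. The log2 difference of Cyp4f15 ranged from -0.24 to -0.16 over the alternatives. With the replicate number as a block (replicate block) the members' counts stayed at 2 and 2, the Cyp4v3 probe set with a log2 difference of 0.34 no longer passed, and over all genes 1024 were lower and 505 higher, against 1741 and 926 without it. Leaving out 1 array gave 1036 to 1352 lower and 516 to 657 higher over all genes, and the methods' t-test unadjusted 2854 and 2062. Centring on brighter probe sets split the calls over all genes into 1473 lower and 1502 higher. Over these settings Cyp4a14 ranged from -4.34 to -4.11, Cyp4a12a from 0.56 to 0.60 and Cyp4b1 from -0.38 to -0.32. Only differences near 0 that were not called turned sign. Cyp4f16 was 0.0096 without Dnajb4-/- replicate 1, its lowest leave-one-out value being -0.075. The dimmer Cyp4f18 probe set was 0.0071 when centred on brighter probe sets and 0.045 without Dnajb4-/- replicate 3, its lowest leave-one-out value being -0.089. Cyp4f41-ps was -0.025 with quantile normalization, -0.081 without Dnajb4+/+ replicate 1 and -0.051 without Dnajb4-/- replicate 1, its highest leave-one-out value being 0.074. Cyp4x1 was -0.011 with quantile normalization, -0.027 and -0.017 without Dnajb4+/+ replicates 1 and 2, and -0.052 without Dnajb4-/- replicate 1, its highest being 0.077. The probe set shared by Cyp4f37 and Cyp4f16 passed without Dnajb4-/- replicate 2, at -0.43. The cause of these changes was not tested. Genotype, Xist, Uty, Eif2s3y and the 3′ to 5′ ratios cannot be told apart.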
